A study of Mus musculus with 16 samples.

Results

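Pancreatic islets of mice fed a high-fat diet and infused with a control virus were compared with islets of chow-fed Flox mice, 4 libraries against 4. The comparison covered 12146 genes, those listed in both deposited tables whose FPKM averaged 0.5 or more across Ctrl and Flox, out of 16815 genes in both tables and 17864 in either. FPKM counts fragments per length of transcript and per mapped fragment, so it scales with transcript abundance per length. The 8 libraries belong to a series of 16 on B7-H4, the immune checkpoint ligand encoded by Vtcn1, in beta cells.

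The Flox mice were B7-H4 fl/fl animals on the C57BL/6J background without Cre, fed normal chow, and their age at islet collection is not given in the sources used here. The high-fat group, H-ins2-C in the labels and Ctrl below, began the high-fat diet at 6 weeks of age, received the AAV2/8 control virus by pancreatic intraductal infusion after 8 weeks of diet, and gave islets 5 weeks later. The series text describes the infused mice as wild type, whereas the methods of the study describe them as Flox. Diet, infusion, virus, age and deposited table all change together between these groups and cannot be told apart. The other 8 libraries are cKO islets, in which a Rip-Cre transgene, driven by the rat insulin II promoter, deletes B7-H4 in mice on chow, and H-ins2-O islets, called OE, in which a virus with an Ins2 promoter expresses B7-H4 on the high-fat diet. OE against cKO spans the same 2 tables with no library in common with Ctrl against Flox. It also differs by Cre, by B7-H4 itself and by the share of exocrine RNA, which cannot be told apart in it. Its values are given only beside those of Ctrl and Flox. Islets were handpicked after collagenase digestion, and the labels do not say how many mice stand behind each library, so p-values measure the spread between these libraries.

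Islets hold insulin-secreting beta cells together with alpha, delta and PP cells, a dense capillary bed, pericytes and resident macrophages, and preparations carry some surrounding exocrine tissue. A high-fat diet makes mice insulin resistant, and beta cells meet the demand by making more insulin, which loads their endoplasmic reticulum and their secretory granules. Chaperones, sterol synthesis, immediate early genes and immune genes are the programmes usually followed in such islets. In bulk islet RNA, fewer cells of a type and less RNA per cell cannot be told apart.

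Some libraries stood apart. The library labelled Flox16 held Tph1, the serotonin synthesis enzyme, at 112 FPKM as deposited, against at most 0.0885 in the other 3 Flox libraries and 116 to 150 in the 4 cKO libraries. It also held Matn2 at 110, Tnfrsf11b at 27.4 and Cish at 56.9 FPKM, where the other Flox libraries reached at most 5.02, 2.08 and 12.1 and the cKO libraries ranged from 75.7 to 85.8, from 18.2 to 24.2 and from 38.5 to 54.4. This library therefore goes against its label, and counts are given with and without it. Vtcn1 itself was near 0 in both groups, from 0.0140 to 0.152 scaled FPKM in Flox and from 0.0437 to 1.02 in Ctrl, against 40.01 to 128 FPKM as deposited in OE. Digestive enzyme genes of acinar cells took 29.2%, 37.5%, 11.4% and 7.89% of summed FPKM in Flox16, Flox17, Flox20 and Flox21. They took 5.81%, 60.6%, 79.2% and 2.29% in Ctrl1, Ctrl2, Ctrl3 and Ctrl5. In cKO their share was 38.3% to 48.65% and in OE 11.71% to 15.24%, without overlap. All 33 acinar genes tested were lower in OE against cKO by the calling rule given below, against 4.47% of all genes. Ctrl5 held the most alpha cell, endothelial, macrophage and erythroid RNA. Relative depth, read from the steps between low FPKM values, lay between 0.858 and 1.01 of that of Flox20, so the 8 libraries were of like depth.

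**Figure D1:**
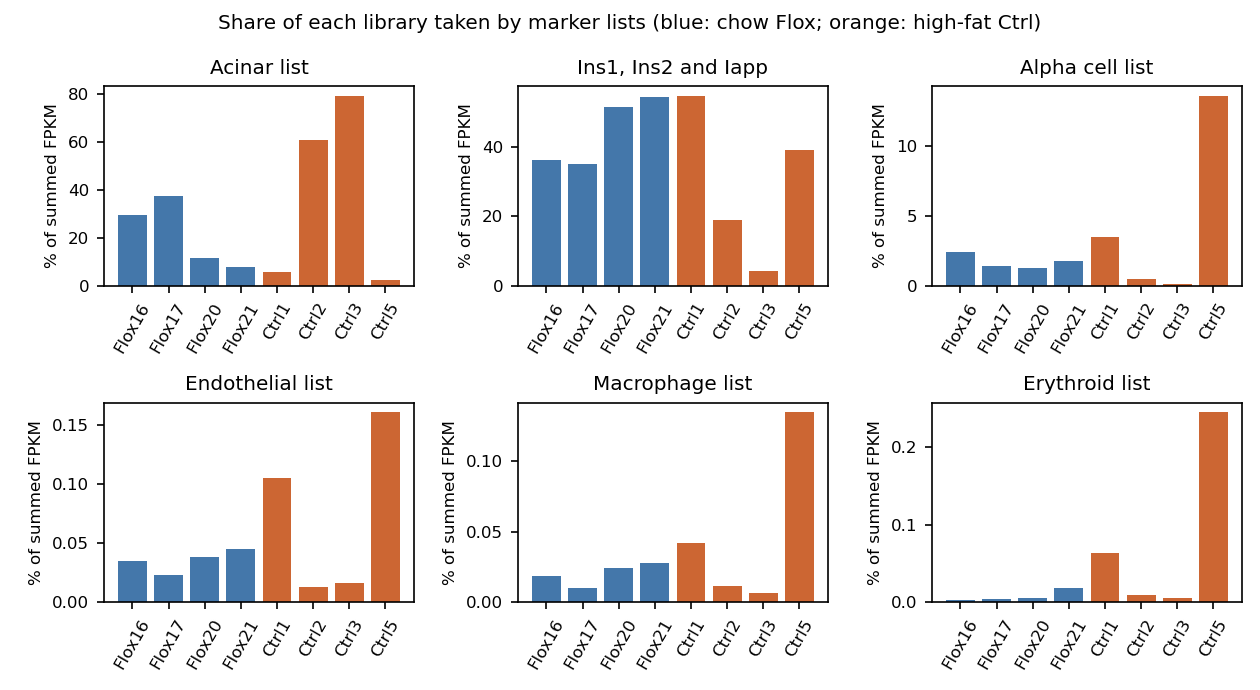
Share of summed FPKM (percent, linear axes from 0) of 5 marker lists and of the beta-cell transcripts Ins1, Ins2 and Iapp, 1 bar for each of the 4 chow Flox and 4 high-fat Ctrl libraries. Acinar genes reached 60.6% and 79.2% in Ctrl2 and Ctrl3, where Ins1, Ins2 and Iapp fell to 18.9% and 4.34%, and Ctrl5 was highest for the alpha cell, endothelial, macrophage and erythroid lists.

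Expression differed between the groups in both directions. Values were scaled between libraries by median of ratios, and a gene was called when its adjusted p in limma was under 0.05 and its log2 fold change on the log2(FPKM + 0.5) scale was beyond 1 in size. By this rule 245 genes (2.02% of those tested) were called higher in Ctrl and 179 (1.47%) lower. By adjusted p alone 749 (6.17%) were higher and 1089 (8.97%) lower. The 4 Ctrl libraries lay entirely above the 4 Flox libraries for 1344 genes (11.1%) and entirely below for 1765 (14.5%). Without the library labelled Flox16, 96 genes (0.790%) were called higher and 135 (1.11%) lower, of which 91 of the higher ones were among the 245. On FPKM as deposited, with no scaling, 0 were called higher and 4 lower, and the middle of all log2 fold changes was then -0.40 in place of 0.01. The scaling factors ran from 0.342 to 1.504 in Ctrl and from 0.932 to 1.42 in Flox. Unscaled, Ctrl lay entirely above Flox for 125 genes and entirely below for 426. Fold changes below are relative to the scaled median, and statements on overlap refer to scaled values unless deposited values are named. Leaving out Flox20, Flox21 or Ctrl5 gave 110, 160 and 231 calls in place of 424.

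**Figure D2:**
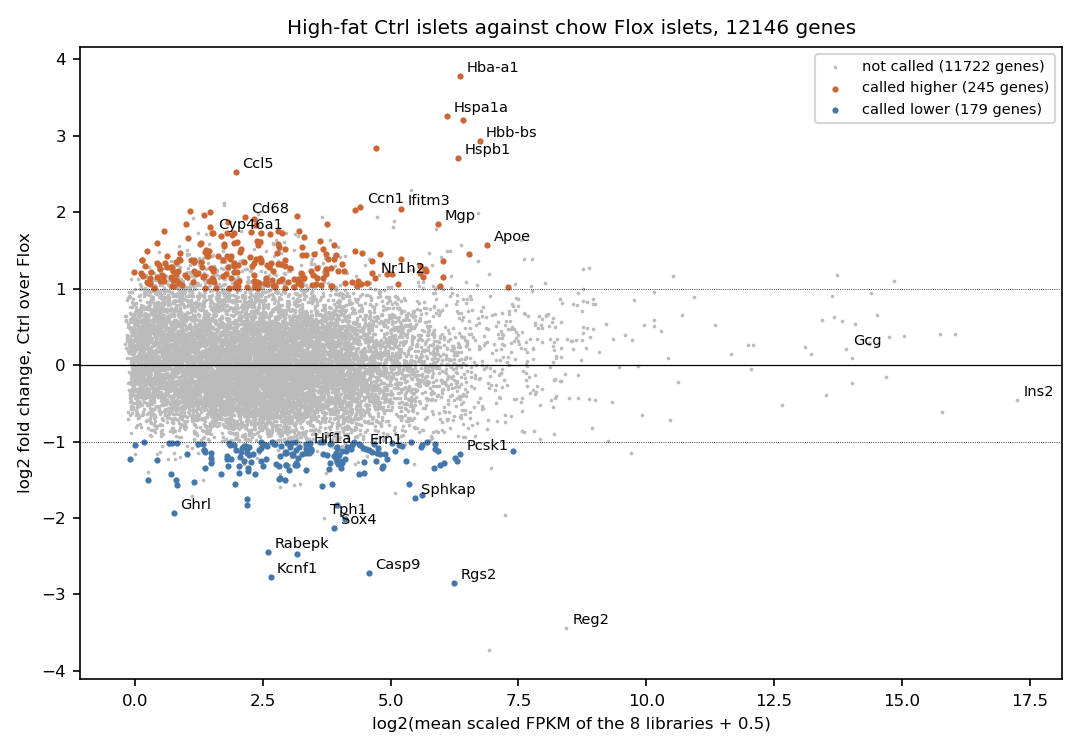
Log2 fold change of Ctrl over Flox (y axis) against the mean level over the 8 libraries, log2(scaled FPKM + 0.5) (x axis), for 12146 genes, with 245 called higher and 179 called lower in colour and dotted lines at a log2 fold change of 1 in size. Hemoglobin and heat shock genes led the higher genes, Rgs2, Kcnf1 and Casp9 led the lower ones, and Reg2 lay far below 0 without a call.

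The difference tracked the base composition of the transcripts. Genes with a GC content under 40% had a median log2 fold change of -0.48, and genes over 58% one of 0.39, with a Spearman correlation of 0.50 across genes, which are not independent replicates. The median GC content was 56.5% for the genes called higher, 43.5% for those called lower and 50.5% for all. OE against cKO showed the same slope, with a Spearman correlation of 0.46, while OE against Ctrl, both in the high-fat table, gave -0.0015 and cKO against Flox, both in the chow table, gave 0.16. A library's levels relative to the other libraries were also correlated with GC. This correlation was between -0.489 and -0.297 in all 8 libraries of the chow table. It was between 0.083 and 0.439 in all 8 of the high-fat table, so the 2 tables did not overlap in it. Such relative values set the tables against each other and do not give the GC trend of a library on its own. Diet and virus infusion change with the table and cannot be told apart from it here. After a correction of each library for GC content and length, 74 genes (0.620%) were called higher and 47 (0.394%) lower, 61 of the higher ones among the 245. The part of base composition in any gene's result was not tested beyond that correction, and its effect on the calls is given beside them.

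**Figure D3:**
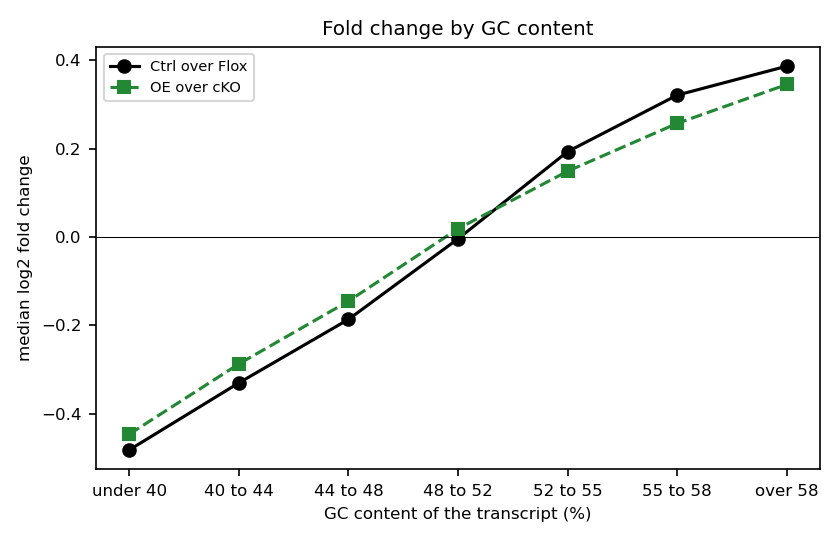
Median log2 fold change (y axis) of genes in 7 bins of transcript GC content in percent (x axis), for Ctrl over Flox and for OE over cKO. Both lines rose with GC content, from -0.48 to 0.39 and from -0.45 to 0.35.

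Heat shock genes split. Of 22 chaperones and co-chaperones tested, 4 were called higher and 1 lower, against 2.02% and 1.47% of all genes. By adjusted p alone 4 were higher and 4 lower, against 6.17% and 8.97% of all genes. The list median was -0.21, against 0.01 over all genes. The inducible Hsp70 gene Hspa1a was at 2.71, 5.78, 32.8 and 21.4 scaled FPKM in Flox16, Flox17, Flox20 and Flox21 and at 126, 50.2, 83.1 and 226 in Ctrl1, Ctrl2, Ctrl3 and Ctrl5. On the scaled values every Ctrl library lay above every Flox library, and the difference was 3.25 ± 0.76 (log2, SE, adjusted p 0.027). Its near-identical neighbour Hspa1b gave 3.21 ± 0.76 (adjusted p 0.028), and since reads from this gene pair are hard to assign, the 2 values are not separate evidence. The small heat shock protein gene Hspb1 was at 16.4, 11.8, 17.4 and 22.2 in Flox and at 134, 39.5, 93.2 and 304 in Ctrl, a difference of 2.71 ± 0.54 (adjusted p 0.017). Flox libraries lay close together for Hspb1, while Ctrl ranged widely with Ctrl5 at the top. The Hsp70 co-chaperone gene Bag3 rose by less, from between 3.92 and 5.04 in Flox to between 5.93 and 14.5 in Ctrl (1.09 ± 0.25, adjusted p 0.026). In OE against cKO the differences for Hspa1a, Hspb1 and Bag3 were 2.57, 1.85 and 0.41.

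The Hsp110-family gene Hspa4l went the other way, at 17.03, 8.31, 15.9 and 12.9 scaled FPKM in Flox and 8.14, 6.16, 4.25 and 4.69 in Ctrl (-1.15 ± 0.26, adjusted p 0.025). Chordc1, which encodes an Hsp90 co-chaperone, passed the adjusted p but not the fold minimum, at 13.9 to 25.4 in Flox and 7.86 to 10.6 in Ctrl (-0.93, adjusted p 0.017). The other Hsp110 gene Hspa4 and the mitochondrial chaperonin gene Hspd1 were also lower by adjusted p, by -0.66 and -0.69. The constitutive Hspa8 had levels that overlapped, between 281 and 438 in Flox and between 338 and 518 in Ctrl. Without the library labelled Flox16 the calls of Hspa1a, Hspa1b, Bag3 and Hspa4l were lost, with adjusted p of 0.058, 0.056, 0.063 and 0.068, and Hspb1 kept its call at 0.049. Each of the 5 calls was also lost without Flox21, those of Hspa1a, Hspa1b, Bag3 and Hspa4l without Ctrl5, those of Hspb1, Bag3 and Hspa4l without Flox20, those of Hspa1a, Hspa1b and Bag3 without Flox17, and that of Bag3 without Ctrl3. In these fits the adjusted p lay between 0.053 and 0.081, except that Bag3 without Ctrl3 missed the fold minimum at 0.9993 (0.033). After the GC and length correction the adjusted p was 0.061 for Hspa1a and 0.057 for Hspb1, with log2 differences of 2.90 and 2.16, and 0.084 for Bag3. Hspa4l fell to -0.52 under it and Chordc1 to -0.23.

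Promoters of the called chaperones are shown because heat shock factor binds inverted GAA units, which can be read in their sequence. The windows run from 250 bases before to 50 after the annotated start (RefSeq, GRCm38.p6), 5′ to 3′ on the strand of the gene, with capitals where 2 units stand head to head or tail to tail, GAANNTTC or TTCNNGAA. Hspa1a and Hspa1b differ at 4 of 300 bases.
Hspa1a, chr17:34972107-34972406, minus strand: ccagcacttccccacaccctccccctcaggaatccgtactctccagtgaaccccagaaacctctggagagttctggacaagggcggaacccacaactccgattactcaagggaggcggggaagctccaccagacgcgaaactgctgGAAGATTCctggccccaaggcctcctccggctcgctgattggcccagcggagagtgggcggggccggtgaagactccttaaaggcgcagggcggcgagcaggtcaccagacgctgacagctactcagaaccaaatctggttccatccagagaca
Hspa1b, chr17:34959189-34959488, minus strand: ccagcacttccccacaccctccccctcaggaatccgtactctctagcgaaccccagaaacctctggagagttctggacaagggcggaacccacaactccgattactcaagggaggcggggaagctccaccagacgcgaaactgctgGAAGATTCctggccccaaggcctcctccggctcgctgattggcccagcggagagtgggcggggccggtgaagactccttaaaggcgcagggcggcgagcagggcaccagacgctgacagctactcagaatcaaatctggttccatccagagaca
Hspb1, chr5:135887669-135887968, plus strand: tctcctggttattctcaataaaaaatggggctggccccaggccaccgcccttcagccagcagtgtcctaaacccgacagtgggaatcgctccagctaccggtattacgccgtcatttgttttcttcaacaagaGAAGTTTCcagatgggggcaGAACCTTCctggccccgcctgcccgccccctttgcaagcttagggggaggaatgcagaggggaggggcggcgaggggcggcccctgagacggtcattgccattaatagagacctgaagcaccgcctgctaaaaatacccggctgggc
Bag3, chr7:128523333-128523632, plus strand: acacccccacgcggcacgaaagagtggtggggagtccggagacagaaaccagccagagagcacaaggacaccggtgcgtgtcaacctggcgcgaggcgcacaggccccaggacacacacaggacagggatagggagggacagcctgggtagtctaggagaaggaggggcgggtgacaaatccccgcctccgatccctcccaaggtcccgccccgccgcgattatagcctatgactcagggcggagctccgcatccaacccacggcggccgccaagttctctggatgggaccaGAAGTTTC
Hspa4l, chr3:40745363-40745662, plus strand: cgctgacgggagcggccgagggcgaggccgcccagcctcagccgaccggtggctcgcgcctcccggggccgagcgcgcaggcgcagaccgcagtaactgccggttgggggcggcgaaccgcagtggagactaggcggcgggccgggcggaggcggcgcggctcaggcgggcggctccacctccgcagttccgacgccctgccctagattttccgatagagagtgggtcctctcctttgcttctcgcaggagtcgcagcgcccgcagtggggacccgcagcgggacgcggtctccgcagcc
Chordc1, chr9:18292017-18292316, plus strand: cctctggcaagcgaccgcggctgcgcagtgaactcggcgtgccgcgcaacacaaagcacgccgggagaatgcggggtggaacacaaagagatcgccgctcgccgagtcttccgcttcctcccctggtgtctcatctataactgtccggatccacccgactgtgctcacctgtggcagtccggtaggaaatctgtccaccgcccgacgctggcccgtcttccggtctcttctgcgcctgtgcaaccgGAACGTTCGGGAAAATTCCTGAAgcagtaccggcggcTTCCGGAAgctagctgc
The 4 genes called higher hold 1, 1, 2 and 1 such pairs, and Hspa4l holds 0. Chordc1, lower in Ctrl, holds 5 overlapping or nearby pairs close to its start. At least 1 pair was present in a promoter of 12 of the 17 listed genes with an entry and in 15.06% of all 32851 promoters, each motif being its own reverse complement, so both strands are covered. The longer form of 3 alternating units spaced by 2 bases, read as GAA, TTC and GAA or as TTC, GAA and TTC, stood in 0.603% of all promoters and in 4 of the 17 genes, Chordc1, Hspd1, Hspe1 and Hsph1, whose log2 differences were -0.93, -0.69, -0.11 and -0.55.

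Immediate early genes included Rgs2, the largest decrease among the called genes. Rgs2, which encodes a brake on G protein signalling, was at 52.02, 133, 199 and 150 scaled FPKM in Flox and 7.67, 22.6, 16.6 and 23.8 in Ctrl. All 4 Ctrl libraries lay below the lowest Flox library, which was the one labelled Flox16. The difference of -2.85 ± 0.47 (adjusted p 0.012) was called in each of the 8 fits that left out 1 library, and was -3.25 without Flox16 and -2.56 after the GC correction (adjusted p 0.033). OE against cKO gave -1.70. Among 24 immediate early genes tested, Rgs2 was the 1 called lower, against 1.47% of all genes. Ccn1, a matricellular protein gene, was the 1 called higher, against 2.02% of all genes. A positive difference was seen for 20 of the 24, and the list median was 0.61. Ccn1 was at 4.59 to 7.93 in Flox and at 41.8, 11.6, 15.2 and 72.4 in Ctrl (2.06 ± 0.54, adjusted p 0.037). Its call was lost without any one Flox library, Ctrl1 or Ctrl5, at an adjusted p of 0.060 to 0.093, and under the GC correction (0.085). Jun, Atf3, Egr1 and Fos, the classical transcription factors of this group, had differences of 1.21, 1.62, 0.90 and 0.77 and none passed the test. Btg2, an antiproliferative early gene, was lower by -0.73 (adjusted p 0.035).

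Of 18 glucocorticoid-responsive genes tested, 2 were called lower and 0 higher, against 1.47% and 2.02% of all genes. Klf9 was at 26.5, 44.1, 39.5 and 34.5 in Flox and at 14.1, 16.4, 20.6 and 13.1 in Ctrl (-1.15 ± 0.20, adjusted p 0.013), a call lost without Flox20 (0.051) and kept without each of the other 7 libraries. Under the GC correction it missed the fold minimum, at -0.94 (0.043). Fkbp5, the glucocorticoid-induced immunophilin, was at 11.8, 32.4, 44.8 and 42.5 in Flox and 8.96 to 14.5 in Ctrl (-1.42 ± 0.39, adjusted p 0.045), and the library labelled Flox16 lay among the Ctrl values. Without that library Fkbp5 was lower by -1.84 (adjusted p 0.022), and without any one of the other 7 its call was lost (0.064 to 0.12), as it was under the GC correction (0.071). Of the 18 genes 11 had a negative difference, with a median of -0.22, and Tsc22d3 and Sgk1, at -0.24 and -0.18, did not pass the test. With the acinar covariate 4 of the list were called lower and 0 higher, against 1.72% and 3.91% of all genes. Without Ctrl2 and Ctrl3, 6 were called lower and 1 higher, against 2.38% and 6.03% of all genes. That fit keeps only Ctrl1 and Ctrl5. In OE against cKO, Klf9 and Fkbp5 were at 0.42 and 0.48, the opposite sign.

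Stromal, vascular and macrophage genes mostly had positive differences. All 26 stellate, pericyte and fibroblast genes tested had a positive difference, with a median of 1.05. Of these 5 were called higher, against 2.02% of all genes. Mgp, the matrix Gla protein of vascular and stromal cells, was at 22.02, 26.6, 24.2 and 24.3 scaled FPKM in Flox and at 73.0, 46.2, 136 and 132 in Ctrl (1.84 ± 0.33, adjusted p 0.014). Flox libraries agreed closely, and the lowest Ctrl library stood well above them. The surface protein gene Thy1, the collagen gene Col6a1 and the small proteoglycan gene Bgn rose by 1.73, 1.57 and 1.57 with no overlap, and the basement membrane collagen gene Col15a1 by 1.04 with overlap. Fibrillar Col1a1 did not pass the test, at 0.772 to 1.78 in Flox and 0.629 to 4.76 in Ctrl. Of 21 endothelial genes 18 were positive, with a median of 0.79, and Sox18, Eng and Egfl7 were called at 1.75, 1.36 and 1.23, while the junction protein gene Pecam1 reached 0.85 (adjusted p 0.13). All 19 macrophage genes were positive, with a median of 0.85, and Cd68 and the lysozyme gene Lyz2 were called.

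Cd68, the lysosomal marker of macrophages, was at 1.42, 0.608, 1.74 and 1.24 in Flox and at 4.93, 5.17, 3.93 and 12.5 in Ctrl (1.94 ± 0.35, adjusted p 0.015). Every scaled Ctrl value lay above Flox, with Ctrl5 highest, whereas as deposited Ctrl3, whose scaling factor was 0.342, held 1.34 FPKM, below the 1.61, 2.34 and 1.76 of Flox16, Flox20 and Flox21. Summed over their lists, stromal genes ran from 113 to 139 scaled FPKM in Flox and from 179 to 571 in Ctrl, macrophage genes from 86.2 to 136 and from 142 to 623, and endothelial genes from 192 to 219 and from 155 to 744. Stromal and macrophage sums thus did not overlap on the scaled values, whereas the endothelial sums did. As shares of summed FPKM all 3 lists overlapped. Stromal genes took 0.0167% to 0.0249% in Flox and 0.0551%, 0.0145%, 0.0226% and 0.0998% in Ctrl1, Ctrl2, Ctrl3 and Ctrl5. Macrophage genes took 0.0103% to 0.0281% in Flox and 0.0417%, 0.0115%, 0.00629% and 0.135% in Ctrl. These calls were sensitive to the libraries included, although the differences stayed large, between 1.25 and 1.86 for Bgn, between 1.24 and 1.86 for Col6a1 and between 1.38 and 1.97 for Thy1 over the 8 fits without 1 library. Without Ctrl2 and Ctrl3, 11 stromal, 15 endothelial and 13 macrophage genes were called higher, against 6.03% of all genes. That fit keeps only Ctrl1 and Ctrl5, and Ctrl5 held the largest share of each of these lists. Without the library labelled Flox16 only Mgp and Cd68 of these 10 genes stayed called, at 0.043 and 0.039, and Thy1, Col6a1, Bgn, Col15a1, Sox18, Eng, Egfl7 and Lyz2 had adjusted p from 0.053 to 0.094. Those 8 calls were also lost without Flox20 and without Flox21, and all but that of Thy1 without Ctrl5. Leaving out Flox20 lost the call of Mgp (0.054) and leaving out Flox21 that of Cd68 (0.052). The list medians moved little without Flox16, to 0.97, 0.76 and 0.79 for stroma, endothelium and macrophages. After the GC correction Mgp and Cd68 remained called, at adjusted p of 0.030 and 0.049, and the other 8 were not (0.070 to 0.18).

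The alpha globin gene Hba-a1 had the largest increase among the called genes. Hba-a1 was at 3.47, 6.66, 5.52 and 16.4 scaled FPKM in Flox and at 106, 42.2, 54.0 and 421 in Ctrl (3.78 ± 0.72, adjusted p 0.017). Hbb-bs followed with 7.29 to 46.2 in Flox and 53.9 to 511 in Ctrl (2.93 ± 0.77, adjusted p 0.037), and Hba-a2 with 2.84. The alpha globin genes are near-identical copies, so their split is uncertain. All 5 erythroid genes tested were positive. Summed, the list ran from 14.5 to 86.3 in Flox and from 111 to 1131 in Ctrl, with Ctrl5 highest. Without Flox16, Hba-a1 kept its call (0.048) and Hbb-bs and Hba-a2 lost theirs (0.095 and 0.11). Hbb-bs and Hba-a2 also lost their calls without Flox17, Flox20, Flox21, Ctrl1 or Ctrl5, and Hba-a1 without Flox20 (0.059). Under the GC correction Hba-a1 stayed called (0.049) and Hbb-bs and Hba-a2 did not (0.094 and 0.13). As deposited, Hba-a1 in Ctrl3 was at 18.45 FPKM, below the 23.38 of Flox21.

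Immune genes mostly had positive differences that did not pass the test. Of 19 antigen presentation genes tested, 7 lay above Flox in every Ctrl library, against 11.1% of all genes, and 0 were called. The class II chain gene H2-Eb1 was at 21.8, 18.2, 19.4 and 20.7 in Flox and at 59.5, 43.0, 36.7 and 250 in Ctrl (1.78 ± 0.53, adjusted p 0.055). Cd74, the invariant chain, was at 64.1 to 73.3 in Flox and 96.2 to 795 in Ctrl (1.64, adjusted p 0.084), and B2m, the class I light chain, at 76.2 to 118 and 163 to 651 (1.39, adjusted p 0.065). Ctrl5 was far above the other Ctrl libraries for each of these genes. Without Ctrl5 the differences shrank to 1.17 for H2-Eb1 and 0.91 for B2m while their adjusted p became 0.025 and 0.045. H2-T22 was the 1 gene of the list past the adjusted p (0.57, adjusted p 0.028).

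Interferon-stimulated genes were positive for 30 of 35, with a median of 0.74 and 0 calls. Stat2, which transmits the interferon signal, passed the adjusted p alone at 0.96 (0.026). Of 21 cytokine and chemokine genes 19 were positive and Ccl5, a T cell attracting chemokine, was called at 2.52 ± 0.72 (adjusted p 0.049), from 0 to 0.589 in Flox and from 0.920 to 19.2 in Ctrl. Icam1, Cxcl16 and Tnfaip3 lay above Flox in every Ctrl library with differences of 1.45, 1.12 and 1.06 but no call. Further immune genes among those of largest change were Ifitm3, an interferon-induced membrane protein gene, at 9.32 to 14.96 in Flox and 22.4 to 105 in Ctrl (2.04 ± 0.43, adjusted p 0.019). Lgals9, which encodes galectin 9, gave 1.95 (adjusted p 0.026), and Il2rg, the shared cytokine receptor chain of lymphocytes, gave 2.00 (adjusted p 0.018). T lymphocyte markers summed to 0.185 to 1.66 scaled FPKM in Flox and to 1.596 to 17.9 in Ctrl, and their part in these values was not tested. Without the library labelled Flox16, Ccl5, Ifitm3 and Lgals9 lost their calls (0.12, 0.054 and 0.068) and Il2rg kept it at 0.0499. All 4 calls were lost without Flox20 or Flox21, those of Ccl5 and Lgals9 also without Ctrl2 or Ctrl5, and that of Ccl5 without Flox17. Under the GC correction Ccl5 lost its call (0.12), and Ifitm3, Lgals9 and Il2rg kept theirs.

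Beta-cell identity genes did not pass the test. Ins2 was at 152900, 207000, 177500 and 176300 scaled FPKM in Flox and at 174600, 162800, 80000 and 120900 in Ctrl, and the groups overlapped. Of 21 identity genes 18 had a negative difference, with a median of -0.36, and 0 were called. G6pc2, the islet glucose phosphatase that sets the threshold for secretion, was the 1 gene of the list with every Ctrl library below every Flox library, at 1505, 1151, 1047 and 847 in Flox and 523, 783, 292 and 525 in Ctrl (-1.15 ± 0.38, adjusted p 0.070). Its OE against cKO difference was -1.21 (adjusted p 7.23e-06). Mafa, Pdx1, Nkx6-1 and Slc2a2 had differences of -0.14, -0.44, -0.67 and -0.32, and Ucn3, a maturity marker, of 0.56.

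Granule and exocytosis genes mostly had negative differences, 22 of 26, with a median of -0.43 and 3 calls, all lower, against 1.47% of all genes. Pcsk1, the convertase that starts proinsulin processing, was at 156, 109, 96.8 and 86.2 in Flox and at 74.8, 52.9, 28.5 and 48.9 in Ctrl (-1.16 ± 0.30, adjusted p 0.037). The groups did not overlap, but Ctrl3, the library with the most acinar RNA, was the lowest. Syt4, a synaptotagmin of the granule membrane, was at 18.2 to 25.5 and 4.87 to 15.4 (-1.28 ± 0.30, adjusted p 0.028), and Sytl4, which encodes the docking protein granuphilin, at 67.2 to 70.4 and 24.2 to 51.7 (-1.004 ± 0.25, adjusted p 0.032). Pcsk2, the companion convertase, gave -0.45 and Chgb -0.83, neither past the test. The list median was -0.08 without Ctrl2 and Ctrl3 and -0.50 without Flox16. All 3 calls were lost without Flox16 (0.066 to 0.090), Flox20, Flox21 or Ctrl5, and under the GC correction (0.074 to 0.14). The call of Pcsk1 was lost without Flox17, Ctrl2 or Ctrl3 as well, and that of Sytl4 without Flox17 or Ctrl3. In OE against cKO the differences of Pcsk1, Syt4 and Sytl4 were -1.18, -0.29 and -0.0019. In stimulus-secretion coupling, 19 of 21 genes were negative with a median of -0.39 and 0 calls, and the somatostatin receptor gene Sstr3 and the calcium release channel gene Itpr1 passed the adjusted p alone, at -0.93 and -0.65.

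Several sterol synthesis genes were lower past the adjusted p alone. The synthesis enzyme genes Sqle, Msmo1 and Hmgcs1 were lower by adjusted p, by -0.72, -0.76 and -0.60, as was the sterol carrier gene Stard4, by -0.88, each with every Ctrl library below every Flox library. Sqle was at 31.5 to 39.3 scaled FPKM in Flox and 19.0 to 23.1 in Ctrl, and its adjusted p passed 0.05 only without Flox20 (0.051) among the 8 fits without 1 library. Tm7sf2, a sterol reductase gene, was called higher at 1.004 ± 0.23 (adjusted p 0.024), a call lost without Flox16, Flox20, Flox21, Ctrl1 or Ctrl5 and under the GC correction (0.59, adjusted p 0.20). Over the 24 genes of synthesis and uptake the median was -0.11, and 14 of them had a negative difference.

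On the side of sterol sensing and disposal, Nr1h2, the liver X receptor beta gene, was at 11.97, 14.9, 18.2 and 17.9 in Flox and at 33.3, 36.8, 34.6 and 35.1 in Ctrl. The 4 scaled Ctrl values lay close together and well above Flox (1.14 ± 0.15, adjusted p 0.0095), the scaling factor of Ctrl3 being 0.342. The call held in all 8 fits without 1 library and fell short of the fold minimum after the GC correction (0.70, adjusted p 0.035). Cyp46a1 and Cyp27a1 are not members of the list of efflux and liver X receptor genes and are named as 2 of the largest calls that held in the 8 fits without 1 library and with the acinar covariate. Cyp46a1, which hydroxylates cholesterol to an oxysterol, was at 0.788, 0.636, 0.775 and 0.987 in Flox and at 3.96, 3.92, 2.45 and 5.21 in Ctrl (1.73 ± 0.21, adjusted p 0.0095). Cyp27a1, the mitochondrial sterol hydroxylase, was at 0.363 to 0.518 and 1.62 to 4.33 (1.67 ± 0.26, adjusted p 0.011). As deposited, Cyp46a1 in Ctrl3 was at 0.836 FPKM, below the 0.894, 1.04 and 1.40 of Flox16, Flox20 and Flox21. Deposited Cyp27a1 did not overlap, at 0.412 to 0.733 FPKM in Flox and 1.24 to 4.21 in Ctrl. Both hydroxylase genes kept their calls in all 8 fits, after the GC correction (1.31 and 1.40, adjusted p 0.023 for each) and with the acinar covariate. In OE against cKO, Nr1h2, Cyp46a1 and Cyp27a1 differed by 0.73, 0.51 and -0.0018. Apoe, the lipoprotein acceptor of effluxed cholesterol, was at 47.7 to 58.1 in Flox and 99.7 to 268 in Ctrl (1.57 ± 0.35, adjusted p 0.022), a call lost without any one Flox library (0.058 to 0.070) and under the GC correction (0.068). The cholesterol exporter genes Abca1 and Abcg1 gave -1.12 (adjusted p 0.062) and -0.05. Of the 15 efflux and liver X receptor genes tested, 2, Nr1h2 and Apoe, were called higher and 0 lower, against 2.02% and 1.47% of all genes. The list median was 0.24. After the GC correction 0 were called and the median was 0.04.

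Among stress and metabolic genes, 1 of 34 endoplasmic reticulum genes was called lower and 0 higher, against 1.47% and 2.02% of all genes. Ern1, which encodes the stress sensor IRE1 alpha, was at 35.3, 26.8, 27.5 and 28.1 in Flox and at 17.2, 15.1, 12.7 and 10.2 in Ctrl (-1.08 ± 0.17, adjusted p 0.011). Every Ctrl library lay below every Flox library, and the adjusted p stayed under 0.05 without Flox16 (-0.9987, 0.033) or Ctrl5 (-0.95, 0.026), where the fold minimum was missed, as it was under the GC correction (-0.95, 0.022). The chaperone gene Hspa5 (-0.44) and the apoptotic factor gene Ddit3 (0.42) did not pass the test, and Canx and Ero1a passed the adjusted p alone at -0.77 and -0.72. Hif1a, the oxygen-regulated transcription factor, was at 12.6, 13.5, 14.5 and 13.3 in Flox and at 7.37, 6.38, 5.38 and 5.58 in Ctrl (-1.08 ± 0.12, adjusted p 0.0073), a call kept in all 8 fits, with a difference of -0.62 after the GC correction (adjusted p 0.021). Its target Vegfa had a difference of -0.0049 with overlapping groups. Sod3, the extracellular superoxide dismutase gene, rose from between 0.316 and 1.14 to between 2.43 and 5.13 (1.81 ± 0.31, adjusted p 0.013) and kept its call in all 8 fits, while the thioredoxin reductase gene Txnrd1 and the glutathione synthesis gene Gclm were lower by -0.81 and -0.59 past the adjusted p alone. The cyclin gene Ccnd2 was called lower (-1.03, adjusted p 0.038) and the mitotic kinase gene Plk1 higher (1.16, adjusted p 0.036), and neither call survived without Flox16 (0.084 and 0.082), Flox17, Flox20 or Flox21, or under the GC correction (0.088 and 0.12). Of 26 fatty acid oxidation and PPAR genes, 24 lipogenesis genes and 17 glycolysis genes, 0 were called.

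**Figure D4:**
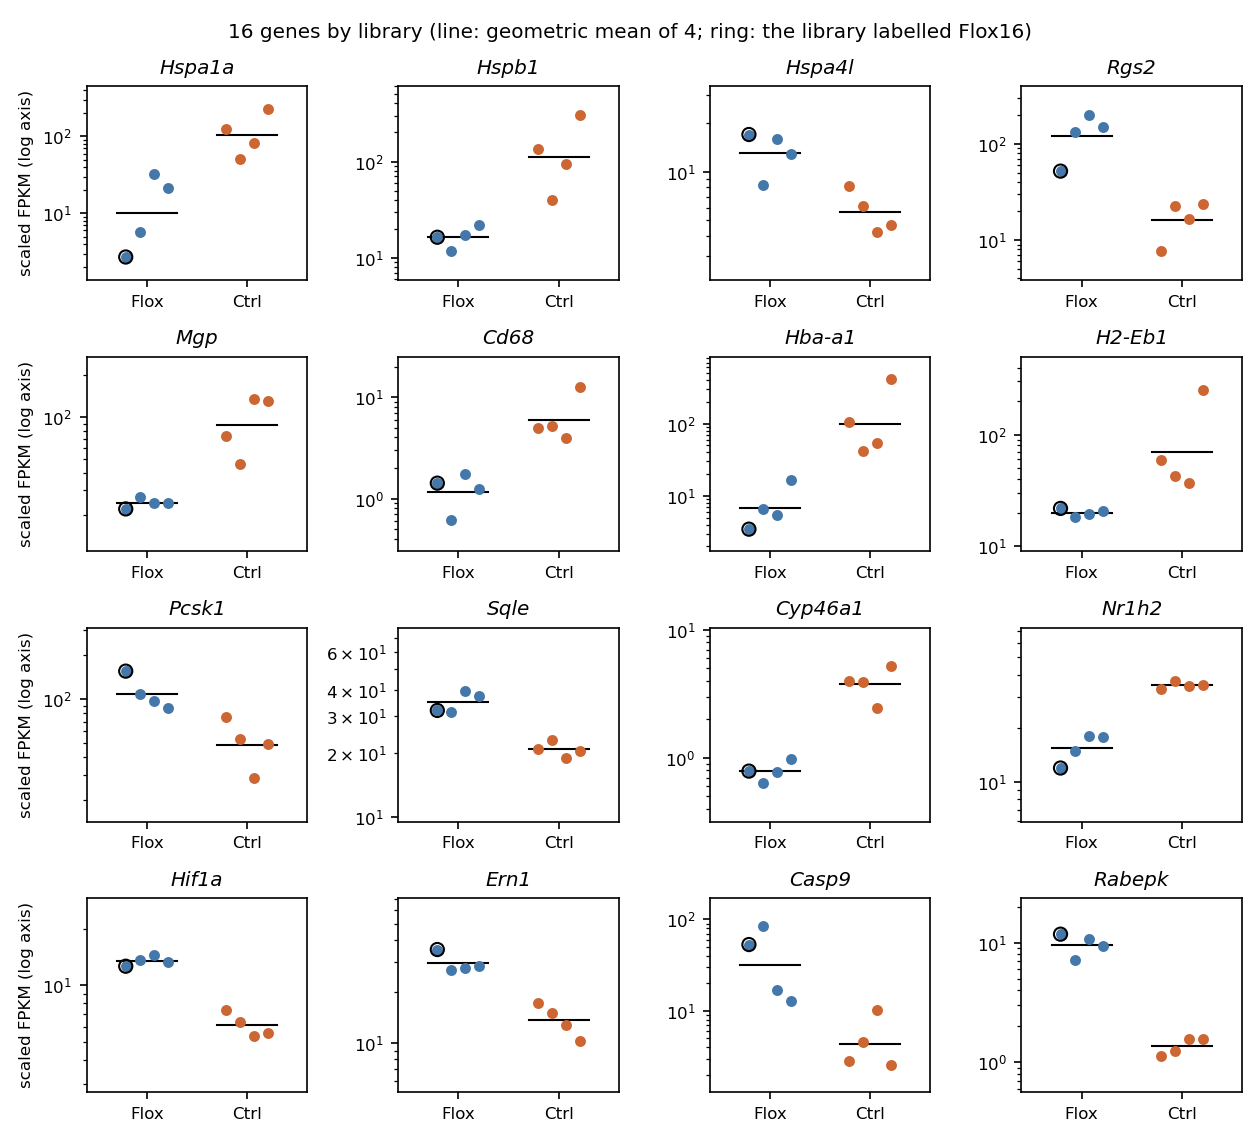
Scaled FPKM on log axes of 16 genes in the 4 chow Flox and 4 high-fat Ctrl libraries, with the geometric mean of each group as a line and the library labelled Flox16 ringed. The groups did not overlap for any of the 16 genes, Nr1h2 and Hif1a showed narrow groups, and Ctrl5 was the highest library for Hspa1a, Hspb1, Cd68, Hba-a1, H2-Eb1 and Cyp46a1.

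Genes that kept their call in all 8 fits without 1 library and with the acinar covariate numbered 41 of the 245 higher and 38 of the 179 lower. The 10 largest of the higher ones were Afm, Alpl, Sap25, Sod3, Cyp46a1, Doc2g, Cyp27a1, Tmem150a, Lmntd2 and Tcirg1, and of the lower ones Rgs2, Rabepk, Sphkap, Napepld, H2ac6, Tmtc3, Ccdc152, Abca5, Ro60 and Kif5b. Rabepk, which encodes a Rab9 effector of endosome traffic, was at 11.8, 7.19, 10.7 and 9.45 scaled FPKM in Flox and at 1.11, 1.23, 1.58 and 1.55 in Ctrl (-2.45 ± 0.17, adjusted p 0.0034), with -2.33 after the GC correction (adjusted p 0.0039) and -2.31 in OE against cKO. Sphkap, an anchor of protein kinase A, was at 59.5 to 75.3 and 11.8 to 29.0 (-1.74 ± 0.26, adjusted p 0.0098). Napepld, which makes N-acylethanolamines, was at 5.07 to 5.64 and 0.880 to 1.84 (-1.55 ± 0.18, adjusted p 0.0073), the Flox libraries being almost equal. Alpl, the tissue-nonspecific alkaline phosphatase gene, was at 0.248 to 0.455 and 1.33 to 4.02 (1.85 ± 0.26, adjusted p 0.0095). Tcirg1, a subunit of the vacuolar proton pump, was at 2.65 to 3.15 and 6.70 to 14.4 (1.59 ± 0.23, adjusted p 0.0097). The motor protein gene Kif5b, the RNA-binding protein gene Ro60 and the transporter gene Abca5 gave -1.35, -1.38 and -1.49. Under the GC correction Kif5b and Abca5 missed the fold minimum, at -0.85 and -0.89, and Ro60 had no GC value.

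Casp9, the initiator caspase of the mitochondrial death pathway, was among the largest decreases, at 53.0, 85.0, 16.7 and 12.9 in Flox and 2.85, 4.59, 10.2 and 2.57 in Ctrl (-2.72 ± 0.64, adjusted p 0.027). The groups did not overlap, but Flox spread widely. OE against cKO gave -4.98 (adjusted p 3.56e-11), so the gap lay between the 2 tables for both pairs of groups. Its call was lost without Flox16, Flox17, Flox20, Ctrl2 or Ctrl5 (0.052 to 0.076) and kept under the GC correction (-2.84, adjusted p 0.046). Kcnf1, a modulatory potassium channel subunit gene, was at 12.7, 3.05, 13.5 and 13.1 in Flox and 0.481 to 1.98 in Ctrl (-2.77 ± 0.48, adjusted p 0.013), a call lost without Flox20 (0.051). Sox4, a developmental transcription factor, was at 7.80, 19.1, 34.3 and 36.4 and at 3.76 to 5.51 (-2.13 ± 0.43, adjusted p 0.018), with the library labelled Flox16 nearest to Ctrl, and lost its call without Flox20 or Flox21 (0.057 and 0.062). Ghrl, the ghrelin gene of epsilon cells, was at 0.904 to 5.03 in Flox and 0 to 0.287 in Ctrl (-1.93 ± 0.40, adjusted p 0.019), and lost its call without Flox16 (0.051) or Flox21 (0.054). Of the genes called here, 34 of the 245 higher were also called higher in OE against cKO (13.9%, and 10.8% of the 315 called there, 2.65% of genes tested), 25 of the 179 lower were also lower (13.97%, and 4.71% of the 531 called there, 4.47% of genes tested), and 0 were called in opposite directions.

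**Figure D5:**
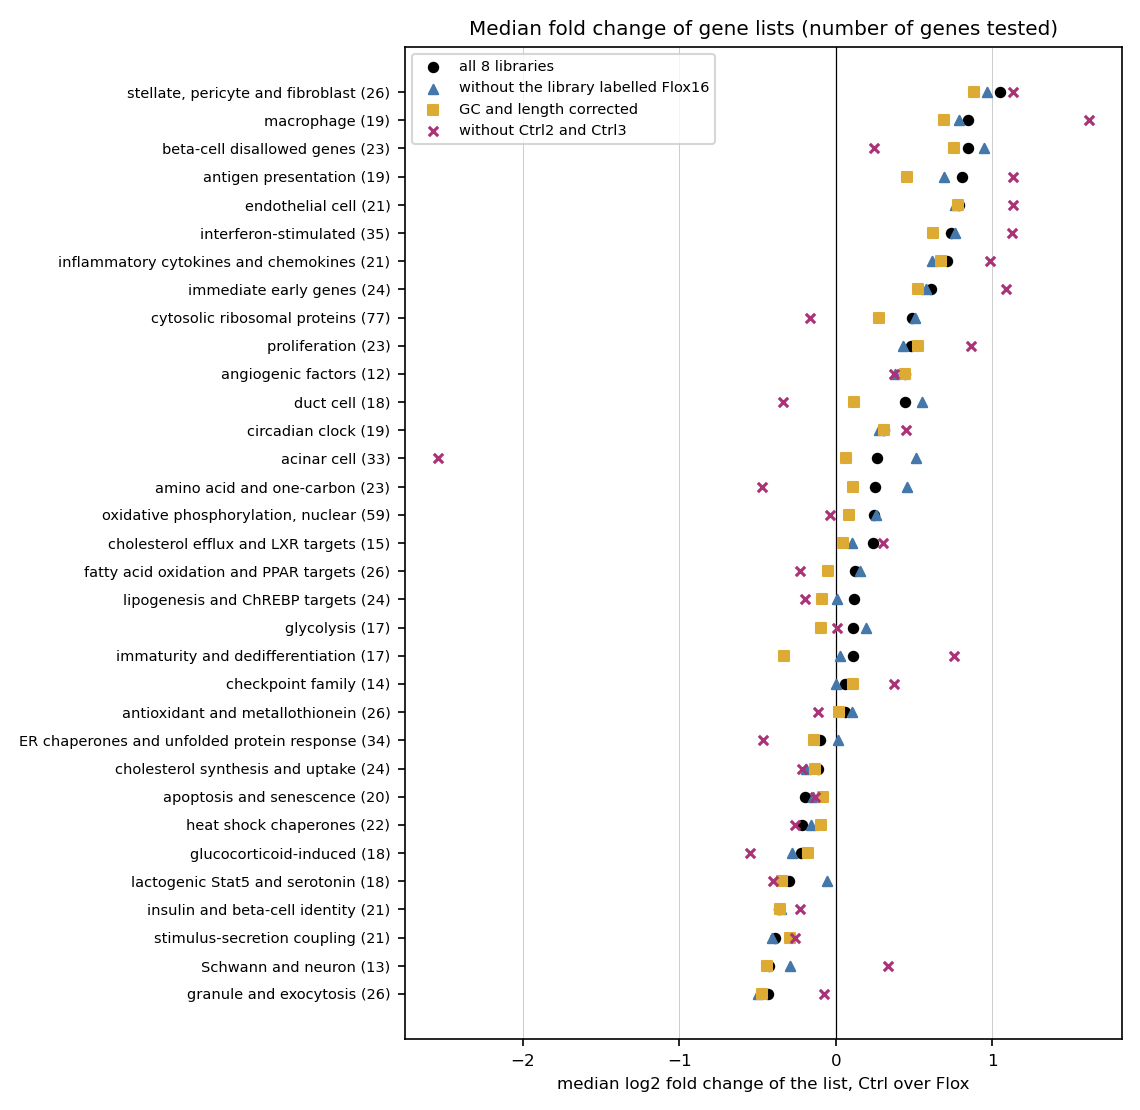
Median log2 fold change of Ctrl over Flox (x axis) of the gene lists with at least 10 genes tested (y axis, number tested in brackets), with all 8 libraries, without the library labelled Flox16, after GC and length correction, and without Ctrl2 and Ctrl3. Stromal genes were highest at 1.05 and granule genes lowest at -0.43, and the acinar list moved from 0.26 to -2.54 when Ctrl2 and Ctrl3 were left out.

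Genes of other cell types varied widely between libraries of the same group. Acinar genes had a median of 0.26 with 0 calls, and -2.54 without Ctrl2 and Ctrl3. The Reg family, secreted proteins of acinar cells, had 6 of 6 negative differences and 0 calls. Reg2 was at 36.6, 175, 855 and 577 scaled FPKM in Flox and at 1.11, 116, 1003 and 0.738 in Ctrl, so that Ctrl1 and Ctrl5 stood far below every Flox library and Ctrl3 above. Reg3b was at 12.5 to 385 in Flox and 0.276, 19.6, 196 and 0.399 in Ctrl, with Ctrl1 and Ctrl5 again far below Flox and Ctrl2 and Ctrl3 within its range. Without Ctrl2 and Ctrl3 the differences were -7.52 for Reg2 and -7.05 for Reg3b. That fit keeps only Ctrl1 and Ctrl5, whose acinar shares of 5.81% and 2.29% lay below the lowest Flox share of 7.89%. Such a choice of libraries by itself favours lower levels of acinar genes, so no conclusion is drawn from these differences. Gcg, the glucagon gene, was at 5915 to 14040 in Flox and at 15880, 5228, 2600 and 60810 in Ctrl, and Sst, the somatostatin gene, at 1217 to 2032 and 767 to 9880, with Ctrl5 highest and neither past the test. Genes normally silenced in beta cells were positive for 22 of 23, with a median of 0.84. Ndrg2 was the 1 called higher, against 2.02% of all genes (1.43, adjusted p 0.035, lost without Flox16, Flox20, Flox21 or Ctrl5). The list median was 0.25 without Ctrl2 and Ctrl3. The acinar share of those libraries moved with these lists, and its part was not tested beyond the fits with the acinar covariate, which called 475 genes (3.91%) higher and 209 (1.72%) lower, and without Ctrl2 and Ctrl3, which called 744 (6.03%) and 294 (2.38%).

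The genes the study manipulated or followed were last compared by an exact permutation test, two-sided, whose smallest possible p with 4 against 4 is 0.0286. Vtcn1, at chr3:100825459-100896922 in GRCm38.p6, differed by 0.66 on the log2 scale (p 0.086), at 0.0176, 0.0647, 0.0140 and 0.152 scaled FPKM in Flox and 0.0437, 0.559, 1.02 and 0.189 in Ctrl. Ctrl2 and Ctrl3, the libraries richest in acinar RNA, held the higher scaled values. As deposited, they were at 0.371 and 0.349 FPKM, and Ctrl5, with the least acinar RNA, was at 0.285, all near 0. Apof, an apolipoprotein gene, differed by 0.17 (p 0.54), at 0.205 to 1.19 in Flox and 0.537 to 1.21 in Ctrl, with overlapping groups.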

How the data were processed

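Islet RNA of 16 mouse libraries was sequenced on an Illumina NovaSeq platform, and the authors deposited FPKM per gene in 2 tables, 1 for Flox and cKO and 1 for H-ins2-C and H-ins2-O. The submitters' processing notes name the build mm10; the aligner, counter and annotation are not given in the sources used here. No counts were used, so depth was read only as a ratio between libraries. Columns were matched to samples by the labels.

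FPKM of the 8 libraries was divided by median-of-ratios factors over all shared genes, and log2(FPKM + 0.5) was fitted by limma 3.58.1 in R 4.3.3 with trend and robust variance, for genes with a mean of at least 0.5. Benjamini-Hochberg adjusted p under 0.05 with a log2 fold change over 1 made a call. Means, SEs and fold changes are on that log scale, which understates changes of low genes. OE against cKO was fitted alike on its own 8 libraries. The fits were tested on simulated data.

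The comparison, its gene lists and rules were chosen with earlier results of these data known. Named genes are Vtcn1, Apof, the genes of the lists, the 15 largest calls without overlap in each direction, and the 10 largest calls in each direction that held in every leave-one-out fit and with an acinar covariate; some of these genes are not reported here. GC content and length came from GENCODE M21 transcripts (98.2% of genes tested), and the correction used lowess curves with a span of 0.3. That correction, its combinations and the fit without both Flox16 and the acinar-rich libraries were added after seeing the data. Replicate numbers of the titles did not pair the libraries (correlations of deviations from -0.328 to 0.453). Python 3.11.15, numpy 2.4.6, pandas 2.3.3 and matplotlib 3.10.9 were used for tables and figures.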

Additional observations from a re-analysis of the deposited data

Results flagged for a closer look

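Within groups of 4 libraries, 126 groups were tested for a library far from the other 3, by the gap to its nearest neighbour over the group's range, and 6 exceeded Dixon's 95% limit for 4 values. Chance flags about 1 in 20 such groups. T lymphocyte markers took 0.00388% of summed FPKM in Ctrl5, above the other Ctrl libraries. Erythroid markers took 0.0179% in Flox21, above the other Flox libraries. Intestinal epithelium markers took 0.00410% in Flox16, below the other Flox libraries. Cdc42ep2, called higher in Ctrl, was at 1.05 scaled FPKM in Ctrl2, below the other 3. Kcnf1 was at 3.05 in Flox17, the Flox library nearest to Ctrl. Mdm1, a centriole protein gene called lower, was at 13.7 in Ctrl3, below the other Ctrl libraries.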

How the results depend on the processing

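Of 424 genes called in Ctrl against Flox, upper-quartile scaling, pseudocounts of 1 and 0.1, filters at a mean of 1 FPKM or above 0, plain variance fitting and the 3 libraries a group of the study's heatmaps gave between 287 and 603. Without scaling 4 were called, with all 16 libraries in 1 model 699, with the acinar covariate 684, without Ctrl2 and Ctrl3 1038, without these and Flox16 864, with the GC and length correction 121, and with that correction without Flox16 30. Without a fold minimum 1838 passed. Leaving out 1 library gave 110 to 632 calls. With the replicate number as a block, and with the block after the GC correction, limma called 0, against 1665 genes higher and 1829 genes lower with a raw p below 0.05 under the block alone; the numbers do not pair these libraries. For OE against cKO the 846 calls became 1453 without scaling, 6 with the acinar covariate and 7355 without a fold minimum, and 776 to 923 without 1 library, while the block left 846 and the GC correction 694. Without 1 library Vtcn1 ranged from 0.44 to 0.86 and Apof from -0.07 to 0.35; Vtcn1 was 0.40 unscaled, 0.41 and 1.45 with pseudocounts of 1 and 0.1, and among all its tests passed only without Ctrl1 (0.86, exact permutation p 0.0286). The causes were not tested. Of 75 named genes called, 23 held in every fit without 1 library, with 47 calls lost without Flox20, 45 without Flox21 and 35 without Flox16. Depth is known only as a ratio between libraries, so no counting interval can be given.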

Other observations

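Cytosolic ribosomal protein genes and nuclear genes of oxidative phosphorylation mostly had positive differences, with 0 calls. Of 77 ribosomal protein genes 68 had a positive difference, with a median log2 difference of 0.49, which was -0.17 without Ctrl2 and Ctrl3 and 0.27 after the GC and length correction. Rps27 went the other way and was the 1 gene of that list past the adjusted p (-0.90, limma adjusted p 0.026). Of 59 oxidative phosphorylation genes 42 were positive, with a median of 0.24, and 10 lay above Flox in every Ctrl library, against 11.1% of all genes. Ndufs3, a core subunit of complex I, passed the adjusted p at 0.59 (0.023). The glycolytic enzyme genes Gapdh and Gpi1 were higher past the adjusted p alone, by 0.78 and 0.63.

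Of 19 clock genes 10 had a positive and 9 a negative difference, with a median of 0.31 and 0 calls. The clock gene Per2 was at 4.49, 7.14, 3.57 and 3.31 scaled FPKM in Flox and at 7.88, 8.402, 12.2 and 8.73 in Ctrl, a difference of 0.97 (adjusted p 0.030). Dbp, Ciart and Nr1d1, other output and repressor genes of the clock, had differences of 1.35, 1.40 and 1.30 that did not pass the test. Clock itself was at 7.94 to 11.6 in Flox and 2.71 to 7.15 in Ctrl, with every Ctrl library below every Flox library (-0.85, adjusted p 0.061). The time of day of collection is not given in the sources used here. Cd47, the ligand that restrains phagocytosis, was lower by -0.62 (adjusted p 0.018), with every Ctrl library below every Flox library. It was the 1 gene of 14 tested in the checkpoint family past the adjusted p, where 8.97% of all genes were lower.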
